A study of Homo sapiens with 2 samples.

Results

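The genes described here are the heat shock protein and DNAJ chaperone genes, and the measurement is ING5 binding at their promoters in HepG2 cells, an established human liver cancer line. Members were all protein-coding genes of the GENCODE annotation whose symbol starts with DNAJ or HSP90, or with HSPA, HSPB, HSPD, HSPE or HSPH followed by a number. The rule gave 74 of 19819 protein-coding genes on chromosomes 1 to 22 and X. One untreated ChIP library was made with an antibody against ING5 (Proteintech), and 1 library of input DNA from the same untreated line served as the control of the deposited peak list. With 1 library of each kind no value has a replicate, no difference between conditions was tested, and intervals cover counting error only.

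ING5 is a chromatin protein whose PHD finger binds histone H3 methylated at lysine, and it works within acetyltransferase complexes of the MYST family. HSP70 proteins, encoded by the HSPA genes, bind unfolded stretches of protein in a cycle of ATP hydrolysis. DNAJ proteins carry the J domain that starts hydrolysis and bring the client, HSPH1 and HSPA4 release the nucleotide, HSP90 proteins act late on kinases and steroid receptors, small HSPB proteins hold unfolded clients without ATP, and HSPD1 with its lid HSPE1 folds proteins inside mitochondria. Heat shock factor 1 induces many of them through repeats of nGAAn, and the unfolded protein response of the endoplasmic reticulum (ER) induces another set through the ER stress element.

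Promoter sequences of 6 members are shown because they carry the 2 kinds of stress element in genes with and without an ING5 peak. They come from RefSeq (GRCh38.p14), run 5′ to 3′ on the strand of the gene, and cover 250 bases before to 50 after a start. HSPA5 and HSP90B1 encode the HSP70 and HSP90 proteins of the ER, and capitals mark the ER stress element, searched as CCAAT, any 9 bases and CCACG on either strand. HSPA5 (chr9:125241294-125241593, minus strand) had a peak on each side of this window, and HSP90B1 (chr12:103930160-103930459, plus strand) had none.
HSPA5: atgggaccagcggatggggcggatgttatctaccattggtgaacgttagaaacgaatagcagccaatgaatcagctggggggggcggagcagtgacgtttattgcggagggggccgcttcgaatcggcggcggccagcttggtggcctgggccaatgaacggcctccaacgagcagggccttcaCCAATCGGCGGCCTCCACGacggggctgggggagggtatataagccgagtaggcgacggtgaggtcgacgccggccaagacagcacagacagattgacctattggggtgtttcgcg
HSP90B1: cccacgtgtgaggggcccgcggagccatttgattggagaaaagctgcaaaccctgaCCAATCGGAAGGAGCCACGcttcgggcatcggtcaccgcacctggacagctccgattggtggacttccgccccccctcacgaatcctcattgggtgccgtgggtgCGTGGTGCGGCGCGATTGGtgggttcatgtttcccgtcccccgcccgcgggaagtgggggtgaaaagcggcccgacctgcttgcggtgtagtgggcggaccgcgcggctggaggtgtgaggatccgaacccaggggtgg
In the other 4, capitals mark the heat shock element cores GAANNTTC and TTCNNGAA, which read the same on both strands and can overlap. HSP90AB1 (chr6:44247693-44247992, plus strand) is the constitutive cytosolic HSP90 gene, and HSP90AA1 (chr14:102086995-102087294, minus strand) the inducible one. DNAJB1 (chr19:14518348-14518647, minus strand) encodes the main inducible J protein, and HSPD1 (chr2:197499791-197500090, minus strand) the mitochondrial chaperonin.
HSP90AB1: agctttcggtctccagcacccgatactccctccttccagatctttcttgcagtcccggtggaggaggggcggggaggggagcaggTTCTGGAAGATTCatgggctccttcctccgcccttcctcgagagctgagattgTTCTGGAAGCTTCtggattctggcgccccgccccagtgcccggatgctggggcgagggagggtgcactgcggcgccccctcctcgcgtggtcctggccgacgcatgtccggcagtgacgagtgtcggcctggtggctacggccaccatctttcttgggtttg
HSP90AA1: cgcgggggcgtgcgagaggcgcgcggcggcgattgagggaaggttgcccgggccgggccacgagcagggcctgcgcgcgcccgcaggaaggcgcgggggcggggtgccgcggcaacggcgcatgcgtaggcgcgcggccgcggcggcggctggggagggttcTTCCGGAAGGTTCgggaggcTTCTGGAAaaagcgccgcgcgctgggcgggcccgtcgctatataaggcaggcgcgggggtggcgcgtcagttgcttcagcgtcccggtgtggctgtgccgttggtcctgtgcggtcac
DNAJB1: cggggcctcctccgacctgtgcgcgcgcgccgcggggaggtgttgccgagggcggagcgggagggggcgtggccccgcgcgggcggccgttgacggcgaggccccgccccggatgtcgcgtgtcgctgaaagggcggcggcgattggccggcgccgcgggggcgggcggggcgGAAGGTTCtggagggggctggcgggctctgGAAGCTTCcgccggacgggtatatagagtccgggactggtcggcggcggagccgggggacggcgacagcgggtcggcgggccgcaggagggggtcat
HSPD1: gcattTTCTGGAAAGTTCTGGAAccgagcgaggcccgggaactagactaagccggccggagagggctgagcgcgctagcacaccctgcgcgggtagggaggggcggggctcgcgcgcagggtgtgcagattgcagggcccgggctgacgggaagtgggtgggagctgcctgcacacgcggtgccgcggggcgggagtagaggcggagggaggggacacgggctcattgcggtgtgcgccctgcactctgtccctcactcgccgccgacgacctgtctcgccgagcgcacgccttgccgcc
Where a gene had several RefSeq windows, the one with the most matches to the marked element was printed. For HSP90AB1 this was the window of a start 842 bp downstream of the canonical one. It held 4 core matches, and all 300 of its bases lay under an ING5 peak. The HSP90AB1 window nearest the canonical start (chr6:44246851-44247150) held no core match and lay between the peaks of the gene. The HSP90AA1 window held 3 core matches, the DNAJB1 window 2 and the HSPD1 window 3. No base of the HSP90AA1 or DNAJB1 window and 45 bases of the HSPD1 window lay under a peak.

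A promoter peak was a peak whose summit lay within 1000 bp of an annotated transcription start site (TSS) of the gene, in GRCh38. It was found at 33 of the 74 members (44.6%, exact binomial 95% interval 33 to 56.6), against 30.9% of all protein-coding genes. Readthrough genes count as members of their own in all shares and intervals. HSPE1 and HSPE1-MOB4 thus have the same best peak, as do DNAJC25 and DNAJC25-GNG10. The 33 genes had 42 distinct promoter peaks, and 9 of them had 2 or more (27.3%, against 23% of all genes with a promoter peak). Measured from the canonical TSS alone, 31 members had a peak, against 27.9% of all genes; DNAJB4 and DNAJB11 were the 2 left out. Among peaks over the lowest local background of the list alone, 15 members had one (20.3%), a share close to the 19.9% of all genes. Of the 31 distinct best peaks of members, 14 lay over that lowest background (45.2%), against 61.6% for all genes with a promoter peak. The 41 members without a promoter peak had their nearest summit at a median of 60639 bp, and 24 of them had none within 50000 bp.

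The strength of a peak is given as its pileup, the number of ChIP fragments over the summit, and as its fold enrichment. The fold enrichment is the authors' ratio of pileup to local background, read here as having 1 fragment added to each. The most significant peaks of the members had a median of 7.39-fold (95% interval 6.47 to 8.09, 31 distinct peaks) and 14 fragments. Over all genes with a promoter peak the medians were 7.01-fold and 13 fragments. Of the 31 peaks, 6 were among the 1000 most significant of the 8608 in the list, namely those of HSPD1, HSP90AB1, HSPA5, DNAJC30, DNAJC21 and HSPA9. The members ran from 7 to 30 fragments and from 4.32-fold to 14-fold, while all genes reached 118 fragments and 63.2-fold. The best rank of any member was 239, that of HSPD1.

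**Figure D1:**
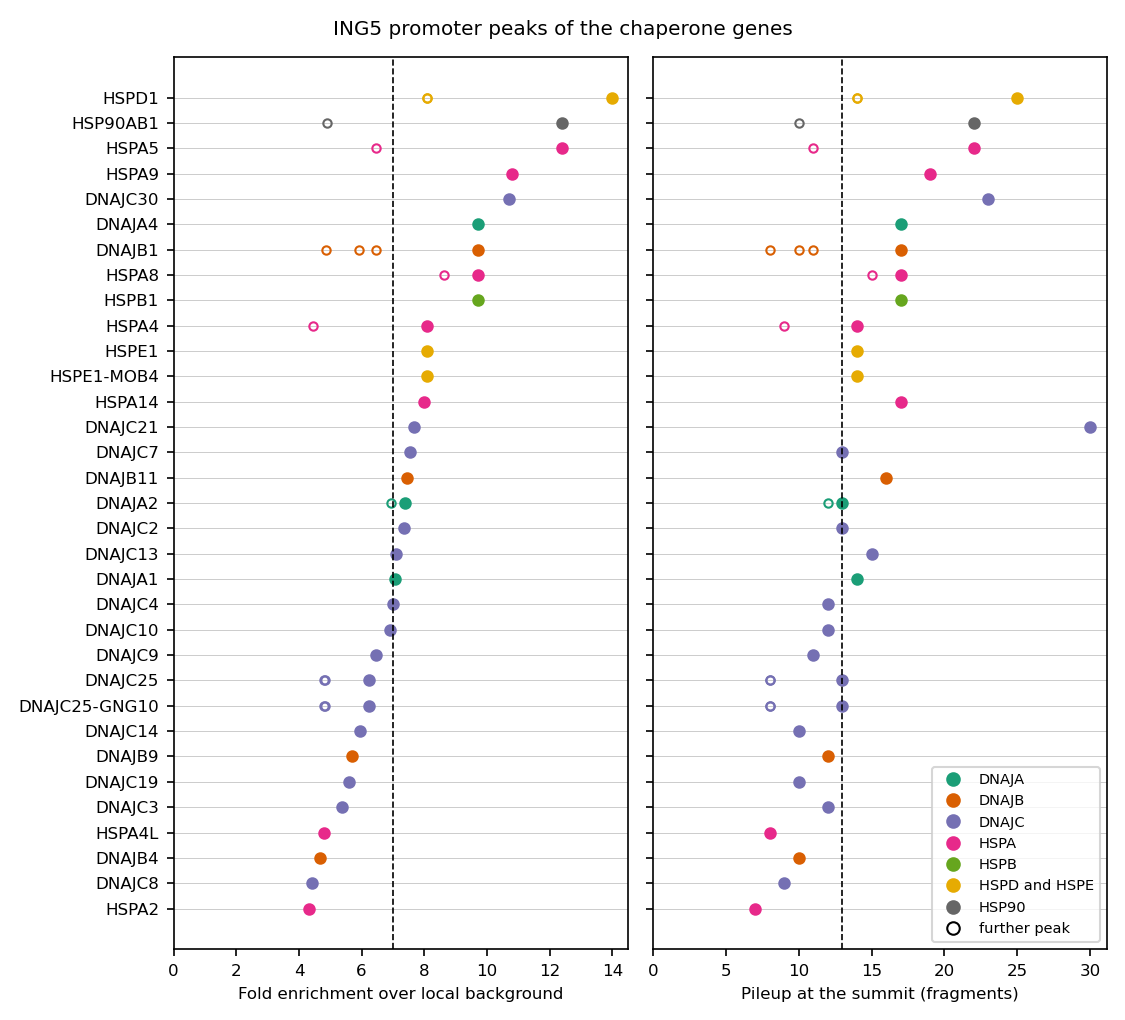
Fold enrichment over local background (left) and pileup in fragments (right) of every ING5 promoter peak at the 33 members that had one, ordered by fold and coloured by family. Filled points are the most significant peak of a gene, open points its further peaks, and dashed lines the medians over all protein-coding genes with a promoter peak (7.01-fold and 13 fragments); HSPD1 is highest in fold and DNAJC21 in fragments.

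HSP70 genes had a promoter peak at 7 of 14, namely HSPA2, HSPA4, HSPA4L, HSPA5, HSPA8, HSPA9 and HSPA14. HSPA5, the ER form also called BiP, had 22 fragments, 12.4-fold and a −log10 p of 24.4 on chromosome 9 from 125240633 to 125241241, in its first intron, 364 bp downstream of the canonical TSS. A second HSPA5 peak of 11 fragments and 6.47-fold lay 531 bp upstream. HSPA9, the mitochondrial form that pulls in imported proteins, had 19 fragments, 10.8-fold and a −log10 p of 20.1, 236 bp downstream of its canonical TSS on chromosome 5. Both stood above the median of all genes.

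HSPA8, the constitutive cytosolic form, had 2 peaks of nearly equal height. The more significant had 17 fragments and 9.71-fold, 847 bp upstream of the canonical TSS and 247 bp downstream of another start of the gene. The other had 15 fragments and 8.63-fold in the first intron, 296 bp downstream. HSPA14, a ribosome-associated member, had 17 fragments and 7.99-fold over a local background of 1.25 fragments; the lowest background of the list was 0.853. Its summit was also in the promoter windows of CDNF and MSANTD7, so it cannot be assigned to 1 gene.

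HSPA4, which releases nucleotide from HSP70, had its better peak 493 bp upstream with 14 fragments and 8.09-fold, and another of 9 fragments and 4.44-fold 193 bp downstream. Among the best peaks of the HSP70 genes, those of the testis-rich genes HSPA2 and HSPA4L were lowest in fold and in fragments. HSPA2 had 7 fragments and 4.32-fold, rank 8317 of 8608 by −log10 p, and 7 fragments is the lowest pileup of any peak in the list. HSPA4L had 8 fragments and 4.81-fold, rank 8015.

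The 7 HSP70 genes without a promoter peak were HSPA1A, HSPA1B, HSPA1L, HSPA6, HSPA12A, HSPA12B and HSPA13. They include the classical heat-inducible genes HSPA1A, HSPA1B and HSPA6. HSPA6 lay 201310 bp from the nearest summit, and HSPA13, an ER-associated member, 680652 bp. HSPA1A, HSPA1B and HSPA1L stand next to each other on chromosome 6, from 31809619 to 31830254, 1.8 Mb from the nearest summit in the list.

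The absence at these 3 genes was shared by the whole stretch around them. No peak lay between 28485410 and 33621501 on chromosome 6, a stretch of 5.14 Mb that holds all starts of 185 protein-coding genes. One of these, at the edge, was within 1000 bp of a summit outside the stretch. No other interval between neighbouring peaks held as many genes; the next held 111. Equal lengths on either side held 64 peaks before it and 39 after it, with a promoter peak at 52 of 104 and 27 of 63 genes. HSPA1A and HSPA1B are also near-identical copies, and the header names the alignment files as rmDupMulti, without saying which reads were removed. The part of read placement in this absence was not tested. Outside the stretch, 33 of 71 members (46.5%) had a promoter peak. This share could only rise, since none of the 3 members inside it had one. The share of all genes outside the stretch was not computed.

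**Figure D2:**
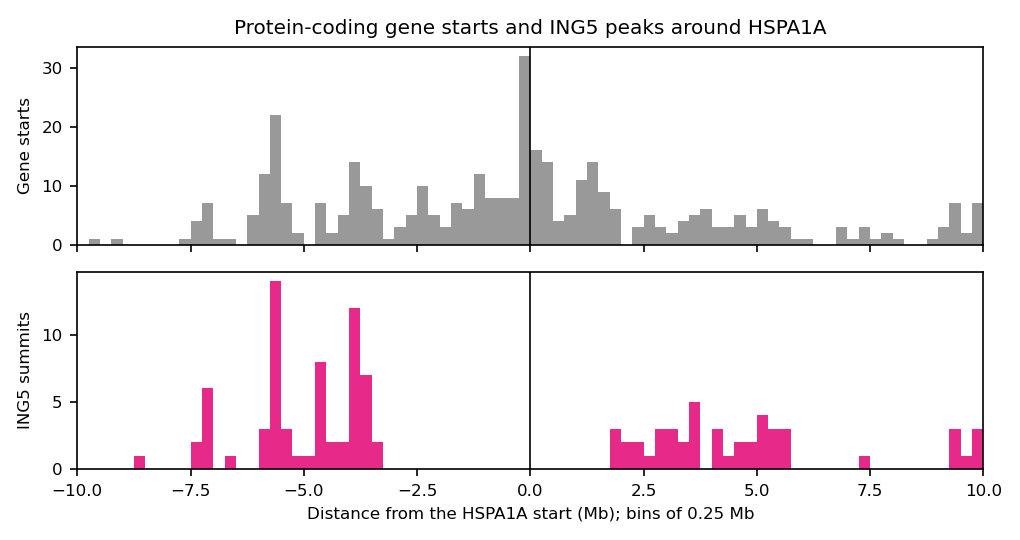
Numbers of canonical starts of protein-coding genes (top) and of ING5 summits (bottom) in bins of 0.25 Mb over 10 Mb on each side of HSPA1A on chromosome 6. Gene starts crowd around HSPA1A while the ING5 summits stop 3.33 Mb before it and begin again 1.81 Mb after it.

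HSP90 genes differed in that the constitutive gene had a peak and the induced ones did not. HSP90AB1 had 22 fragments, 12.4-fold and a −log10 p of 24.4 on chromosome 6 from 44247436 to 44248140, in the first intron, 878 bp downstream of the canonical TSS and 113 bp downstream of a further start. A smaller peak of 10 fragments and 4.88-fold lay 428 bp upstream. HSP90AA1, whose window is printed above with its heat shock element cores, was 118756 bp from the nearest summit. HSP90B1, the ER form known as GRP94, was 14969 bp from one. HSPH1, the inducible cytosolic nucleotide exchange factor, had no peak within 1288316 bp. These are single genes in 1 library, and no difference between them was tested.

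The mitochondrial chaperonin genes had the peak with the highest fold and −log10 p of all members. HSPD1 and HSPE1 lie head to head on chromosome 2. The HSPD1 peak ran from 197498734 to 197499835, a width of 1102 bp, with 25 fragments, 14-fold and a −log10 p of 28.8, rank 239 of 8608, and its summit lay in the first intron 917 bp downstream of the canonical TSS. A second peak, from 197500497 to 197501299, had 14 fragments and 8.09-fold. Its summit was 278 bp downstream of the canonical TSS of HSPE1, 244 bp downstream of that of the readthrough gene HSPE1-MOB4, and 817 bp upstream of that of HSPD1. The summits of this pair of peaks thus lay on either side of the starts, inside the first intron of each gene, while the HSPD1 peak itself reached into the printed promoter window. A further HSPD1 peak, also of 14 fragments and 8.09-fold, had its summit 16649 bp upstream of the canonical TSS, 248 bp downstream of another HSPD1 start and also near a start of MOB4.

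Small heat shock protein genes had a promoter peak at 1 of 8. HSPB1, the inducible HSP27 gene, had 17 fragments and 9.71-fold between positions 76302633 and 76303361 of chromosome 7; the summit fell in exon 1 and the peak covered the TSS. The muscle genes HSPB2, HSPB3, HSPB6 and HSPB7, the testis gene HSPB9, HSPB8 and the readthrough gene HSPB2-C11orf52 had none. Their nearest summits lay between 31792 bp (HSPB9) and 771166 bp (HSPB3) away. The interval of this share, 0.316 to 52.7%, includes the 30.9% of all genes.

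DNAJA genes, which encode J proteins built like bacterial DnaJ, had a peak at 3 of 4. DNAJA4 had 17 fragments and 9.71-fold, 556 bp downstream of its canonical TSS. DNAJA1, a heat-inducible partner of HSPA8, had 14 fragments and 7.07-fold, 155 bp downstream and within reach of the start of APTX. DNAJA2 had 2 peaks of 13 and 12 fragments, 676 and 79 bp downstream, the second over the TSS. DNAJA3, the mitochondrial member, was 82395 bp from the nearest summit.

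DNAJB genes had a peak at 4 of 12, and DNAJB1 had the most peaks of any member. Its best peak, from 14516857 to 14517739 on chromosome 19, had 17 fragments and 9.71-fold. The summit lay 1161 bp downstream of the canonical TSS, and 333 bp downstream of a further start. A peak of 10 fragments lay 231 bp downstream of the canonical TSS. The remaining peaks, of 11 and 8 fragments, had summits 11548 and 32477 bp upstream, near further starts, and the best peak and that of 11 fragments were also within 1000 bp of starts of TECR. The printed DNAJB1 promoter with its 2 heat shock cores fell between the peak of 10 fragments and that of 11.

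The other 3 DNAJB peaks lay upstream of the nearest start and near starts of other genes. DNAJB11 and DNAJB9 encode the ER J proteins ERdj3 and ERdj4. The DNAJB11 peak had 16 fragments and 7.45-fold but lay 3610 bp upstream of the canonical TSS, beside TBCCD1. The DNAJB9 peak had 12 fragments and 5.69-fold, 519 bp upstream and in the windows of PNPLA8 and THAP5. The DNAJB4 peak had 10 fragments and 4.68-fold, 26081 bp upstream, near FUBP1 and GIPC2. Without a peak were DNAJB2, DNAJB5, DNAJB6, DNAJB12 and DNAJB14 and the testis genes DNAJB7, DNAJB8 and DNAJB13. DNAJB6, an inhibitor of protein aggregation, missed the window narrowly, with a summit of 9 fragments and 5.4-fold at 1042 bp.

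DNAJC genes, the most varied class, had a peak at 14 of 29. DNAJC30, a mitochondrial J protein, had the strongest in fold, with 23 fragments and 10.7-fold in exon 1, in the window of the neighbouring gene BUD23 as well. DNAJC21, a factor of ribosome assembly, had the highest pileup of all members, 30 fragments. Its local background was also the highest, 3.04 fragments, so that the enrichment was 7.68-fold. This peak lay on chromosome 5 from 34929904 to 34930353.

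A middle group of 6 DNAJC genes had 11 to 15 fragments and 6.47-fold to 7.55-fold. It held DNAJC7, a cochaperone of HSP70 and HSP90 (7.55-fold), DNAJC2, which works at the ribosome (7.35-fold), and DNAJC13 of endosomes (7.1-fold). With them were DNAJC4 (7.01-fold), the ER disulfide reductase DNAJC10 (6.91-fold) and the histone chaperone DNAJC9 (6.47-fold). DNAJC25 and the readthrough DNAJC25-GNG10 shared 3 peaks, the best with 13 fragments and 6.22-fold. At the low end stood DNAJC14 (5.94-fold), the import motor subunit DNAJC19 (5.61-fold), the ER stress gene DNAJC3 (5.37-fold) and DNAJC8 (4.42-fold), with 9 to 12 fragments.

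The 15 DNAJC genes without a promoter peak were DNAJC1, DNAJC5, DNAJC5B, DNAJC5G, DNAJC6, DNAJC11, DNAJC12, DNAJC15, DNAJC16, DNAJC17, DNAJC18, DNAJC22, DNAJC24, DNAJC27 and DNAJC28. DNAJC5, the cysteine string protein of synaptic vesicles, had a summit of 10 fragments and 5.94-fold just outside the window, at 1362 bp. Inside the window, the best summit farthest from a start was that of DNAJA2 at 666 bp. DNAJB14, an ER membrane J protein gene, had a summit of 11 fragments at 3011 bp, and DNAJC16 had 1 peak in its body away from its own starts.

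By compartment, a peak was found at 6 of 9 mitochondrial, 6 of 13 ER, 15 of 33 cytosolic, 2 of 3 nuclear and 1 of 4 vesicle genes. The mitochondrial genes with a peak were HSPD1, HSPE1, HSPA9, DNAJC4, DNAJC19 and DNAJC30, and their median was 9.37-fold, against 6.42-fold for the ER genes and 7.68-fold for the cytosolic ones. The intervals of the mitochondrial (29.9 to 92.5%), ER (19.2 to 74.9%) and cytosolic (28.1 to 63.6%) shares overlapped, and each included the 30.9% of all genes. The nuclear (9.43 to 99.2%) and vesicle (0.631 to 80.6%) intervals included it as well. The intervals of the median folds also overlapped, at 5.61 to 14 for mitochondrial, 5.37 to 12.4 for ER and 7.07 to 9.71 for cytosolic genes.

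By the way they are expressed, genes known as constitutive had a peak at 13 of 18 (72.2%, 46.5 to 90.3), ER stress-inducible genes at 5 of 7 and heat-inducible genes at 8 of 14 (57.1%, 28.9 to 82.3). The heat-inducible genes with a peak were HSPD1, HSPE1, HSPB1, HSPA4L, DNAJA1, DNAJA4, DNAJB1 and DNAJB4. Those without were HSPA1A, HSPA1B, HSPA6, HSPB8, HSPH1 and HSP90AA1, of which HSPA1A and HSPA1B lie in the stretch of chromosome 6 without peaks. The ER stress genes with a peak were HSPA5, DNAJB9, DNAJB11, DNAJC3 and DNAJC10, and HSP90B1 and HSPA13 had none. The constitutive genes without a peak were DNAJA3, DNAJC5, DNAJC11, DNAJC17 and DNAJC24. The intervals of these 3 classes overlapped. The remaining 35 members, left without an expression class, had a peak at 7 (20%, 8.44 to 36.9), and that interval lay below the constitutive one. They are a remainder and not a mode of expression. They include all 7 testis-restricted genes and the muscle HSPB genes, all without a peak. The readthrough genes are also among them, of which HSPE1-MOB4 and DNAJC25-GNG10 had a peak and HSPB2-C11orf52 did not. Over all genes the share was 30.9%. No difference between classes was tested.

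None of the 7 testis-restricted genes had a promoter peak (exact binomial interval 0 to 41%): DNAJB7, DNAJB8, DNAJB13, DNAJC5B, DNAJC5G, HSPA1L and HSPB9. That interval includes the 30.9% of all genes. Without them the share of members with a peak was 33 of 67 (49.3%), which could only rise because none of them had a peak. The share of all genes was not computed without testis-restricted genes. HSPA1L lies in the stretch of chromosome 6 without peaks.

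**Figure D3:**
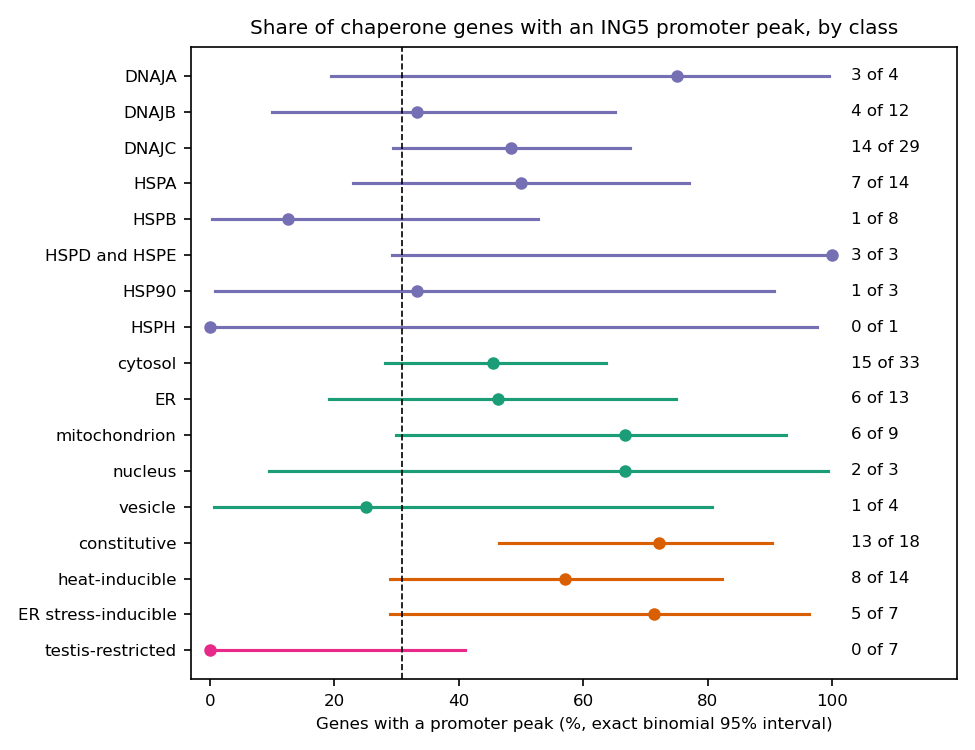
Percent of members with an ING5 promoter peak by symbol family, compartment, expression class and testis restriction, with exact binomial 95% intervals (lines) and counts at the right; the dashed line is the 30.9% of all protein-coding genes. Constitutive genes (13 of 18) stand above the line with their whole interval, and none of the 7 testis-restricted genes had a peak. The classes came from a hand-written table, and members were chosen with earlier results of these data known. No difference from the line was tested.

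Summits lay mainly downstream of the start. From the nearest TSS of the gene, the best summits of the members had a median offset of 128 bp (35 to 333), against 164 bp over all genes. The order of these medians depended on the starts and peaks used: from canonical starts they were 295 and 339 bp, from starts of protein-coding transcripts 228 and 215 bp, and with peaks at the lowest local background 213 and 165 bp. By the first measure summits were downstream at 26 of 33 members (78.8%, 61.1 to 91), against 71.4% of all genes. In terms of the canonical transcript, 21 best summits were in intron 1, 7 in exon 1 and 5 upstream. The upstream summits were those of HSPA8, HSPA4, DNAJB4, DNAJB9 and DNAJB11.

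Several members had peaks on both sides of the canonical TSS. This was so at 7 of the 31 members with a peak there (22.6%), namely HSPA4, HSPA5, HSPA8, HSP90AB1, HSPD1, DNAJC25 and DNAJC25-GNG10, against 12.6% of all such genes. At DNAJC25 and DNAJC25-GNG10, which share their peaks but count as separate members, a peak also covered the TSS. A peak covered the canonical TSS itself at 5 of 31 members (16.1%, against 14% of all such genes): HSPB1, DNAJA2, DNAJC9, DNAJC25 and DNAJC25-GNG10. At HSPA5 the window printed above lay wholly in the gap between its 2 peaks.

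**Figure D4:**
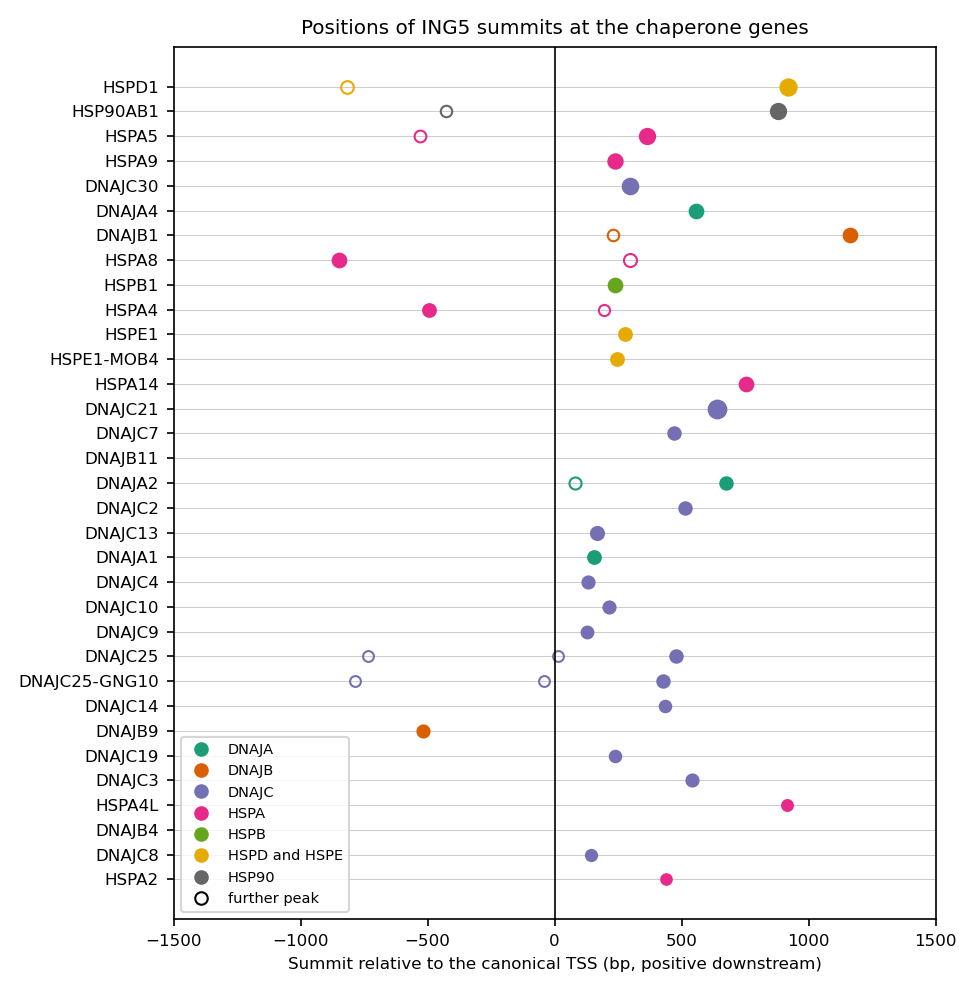
Summit positions relative to the canonical TSS (bp, positive downstream) of all promoter peaks within 1500 bp of it, 1 row per member in order of fold; filled points are the most significant peak of a gene, open points further peaks, and larger points have more fragments. Most filled points lie to the right of the line; DNAJB4 and DNAJB11 have no point because their summits lie 26081 and 3610 bp upstream, near other starts.

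Neighbouring genes shared many of these peaks. The best summit was also within 1000 bp of a start of another protein-coding gene at 13 of 33 members (39.4%), against 31.4% of all genes with a promoter peak. At 9 of them that gene was no member. Members with a peak had a median of 5 distinct starts, as had those without, against 8 for all genes with a promoter peak and 4 for all genes without. A start of a gene on the opposite strand lay within 1000 bp of the canonical TSS at 6 of 33 members with a peak (18.2%, against 19.1% of all genes with one) and 6 of 41 without (14.6%, against 5.94% of all genes without). The 6 without a peak were DNAJC17, DNAJC24, HSPB2 with its readthrough gene HSPB2-C11orf52, and the neighbours HSPA1A and HSPA1L in the stretch of chromosome 6 without peaks. The 6 with a peak include HSPD1, HSPE1 and HSPE1-MOB4, which lie together. Shared loci are thus counted more than once on both sides.

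Members with a peak had a higher median CpG content, with intervals that overlapped. RefSeq windows were matched by symbol to 66 of 74 members (89.2%) and to 80.2% of all genes outside chromosome 8. CpG, as observed over expected in the window nearest the canonical TSS, had a median of 0.91 (0.79 to 0.96, n = 32) in members with a peak and 0.75 (0.59 to 0.89, n = 34) in those without. It was 0.88 over all genes with a promoter peak. When all genes were cut into 3 equal groups by CpG, a peak was found at 1 of 15 members in the group with least CpG, against 9.96% of all its genes. It was found at 11 of 19 members in the middle group, against 38.7%, and at 20 of 32 in the group with most CpG, against 50.5%. The 1 member with a peak in the first group was DNAJB4, whose peak lies at another start. That group also held HSPA1A, HSPA1B and HSPA1L (0.55, 0.62 and 0.50), which lie in the stretch of chromosome 6 without peaks. No test of these shares was run.

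**Figure D5:**
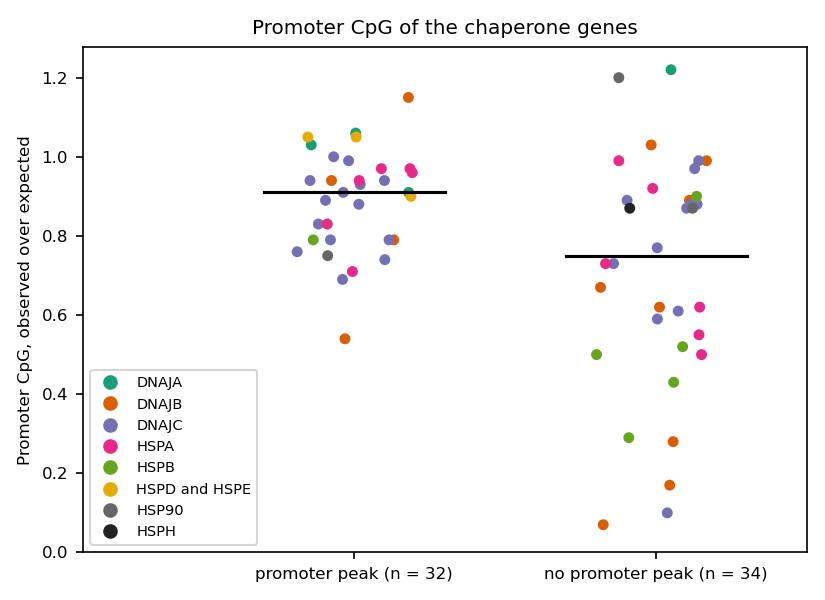
CpG observed over expected in the RefSeq promoter window nearest the canonical TSS, for members with (n = 32) and without (n = 34) an ING5 promoter peak; points are genes, coloured by family and spread sideways for sight, and bars are medians (0.91 and 0.75). Values below 0.5 occur only among members without a peak.

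Heat shock element cores were common in these promoters with or without a peak. GAANNTTC or TTCNNGAA was in the window nearest the canonical TSS at 9 of 32 members with a peak (28.1%) and 12 of 34 without (35.3%), against 11% of the 15329 genes with a window and 8.83% of those with a promoter peak. TATAAA was at 1 of 32 and 9 of 34, against 9.34% of those genes. GGGCGG was at 23 and 22, against 61.8%, CCAAT at 11 and 14, against 36.5%, CCACG, a part of the ER stress element, at 19 and 15, against 44.6%, and CGGAAG at 15 and 11, against 26.6%. All were searched on both strands. Among all genes with a promoter peak the shares were 4.86% for TATAAA, 76.4% for GGGCGG, 36.8% for CCAAT, 53.1% for CCACG and 37.3% for CGGAAG. The members without a peak include HSPA1A, HSPA1B and HSPA1L, which lie in the stretch of chromosome 6 without peaks. Each of these held GAANNTTC and TATAAA, and the HSPA1A and HSPA1L windows overlap for most of their length. The full ER stress element was in 20 of 15329 windows (0.13%), and the 2 members among them were HSPA5, with a peak, and HSP90B1, without one. A match is a run of letters and not a measured site.

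Other genes of the chaperone network had a promoter peak at 34 of 59 (57.6%), beside the 30.9% of all genes, with a median of the best peaks of 7.06-fold. None of the heat shock factor genes HSF1, HSF2, HSF4 and HSF5 nor HSBP1, which binds these factors, had one. Nucleotide exchange factor genes had 8 of 11, led in −log10 p, as in the groups that follow, by BAG2 with 30 fragments and 14.1-fold, BAG1 with 24 fragments and 8.69-fold, and GRPEL1 of mitochondria with 16 fragments and 9.17-fold. HSP90 cochaperone genes and TRAP1 had 12 of 18, led by NUDC with 11.9-fold, PTGES3, the p23 gene, with 11.3-fold, and STUB1, a ubiquitin ligase gene, with 8.63-fold. Chaperonin and prefoldin genes had 9 of 14, led by CCT5 with 31 fragments and 7.75-fold, TCP1 with 18 fragments and 10.3-fold and CCT8 with 22 fragments and 8.99-fold. Among J-domain genes with other symbols, GAK and SEC63 had a peak and HSCB had none. CLPX, TIMM44 and CLPB had one among 5 genes listed for mitochondrial import and protein unfolding, with 11.4-fold at CLPX. That group also held PAM16 and HSPBAP1, an HSPB1-associated protein gene, both without a peak. The lens and muscle genes CRYAA and CRYAB had none.

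The labelled liver origin could not be read from the peaks: none of the 6 hepatocyte markers ALB, APOA1, APOB, TTR, SERPINA1 and AFP had a promoter peak. The ChIP library held 12416160 fragments and the input 9915170, with a fragment size of 183 bp. No expression was measured, so a missing peak says nothing of whether a chaperone gene was active. A gene without a peak is one at which no binding was called in this list. For the genes in the stretch of chromosome 6 without peaks, the part of read placement was not tested.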

How the data were processed

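ING5 ChIP and input DNA, 1 library each, were compared by the authors in 1 peak list of 8608 peaks; p-values between groups were not possible. Per the file headers, the caller was MACS2 2.1.1.20160309, run on read pairs with p-value cutoff 1e-05. Per the submitters' processing notes, the tools included fastp 0.19.6, deepTools and Bowtie2. The authors' pileup is a coverage signal in fragments, the deposited fold enrichment a linear ratio, and peaks were ranked by the deposited −log10 p. The labels name GRCh37, but 76% of 8589 summits lay within 1000 bp of a GRCh38 start and 13.7% of a GRCh37 one, so positions are read as GRCh38. GRCh38 starts came from the original exon positions in GENCODE 44, all transcript types included. Where a gene had several peaks the most significant was its best. Local background was (pileup + 1) / fold − 1, and the lowest was taken within 0.001 fragments. The deposited width, in bp, is as listed.

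The assignment of summits to starts was tested on simulated data. Shares have exact binomial 95% intervals, medians order-statistic ones. No list test was run. Compartment and expression classes came from a hand-written table. Members and lists were chosen with earlier results of these data known. Named genes were all members, with full values for a fixed set and the most significant of each family, and up to 3 per group of other chaperone genes. Alternatives are in the closing section. Scripts used Python 3.11.15, pandas 2.3.3, scipy 1.17.1 and matplotlib 3.10.9.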

Additional observations from a re-analysis of the deposited data

How the results depend on the processing

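The 33 members with a promoter peak became 25 with peaks of rank 4304 or better, 35 within 3000 bp, 34 with any overlap of the peak, 31 at canonical starts and 32 with protein-coding transcripts, 19 within 200 bp, 15 with peaks at the lowest local background and 6 with the 1000 most significant peaks. All genes gave 20.9%, 32.9%, 31.4%, 27.9%, 30.2%, 13.5%, 19.9% and 4.77% in the same order, against 33.8%, 47.3%, 45.9%, 41.9%, 43.2%, 25.7%, 20.3% and 8.11% of members. Among the 1000 most significant peaks the members' median was 11.6-fold and 22.5 fragments, by construction of stronger peaks, and at the lowest background it was 8.9-fold; the cause of the last was not tested. With peaks of rank 4304 or better DNAJB genes had 2, ER genes 3, ER stress genes 3 and nuclear genes 1. Within 200 bp DNAJB genes had 1, HSPA genes 3, HSPB genes 0, cytosolic genes 8, ER genes 1, heat-inducible genes 4 and ER stress genes 1. Within 3000 bp vesicle genes had 2, since DNAJC5 was gained. The other 74 of 92 values stayed within 1.5 times the count or inside the interval, and no median offset changed sign. Protein-coding transcripts, the lowest background, the chromosome 6 stretch and the full ER stress element were added after seeing the data. No paired analysis was possible because each group has 1 library. A peak of 7 fragments was the lowest called, so weaker binding could not be seen.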
